A study of Mus musculus with 20 samples.

Results

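Mixed leptotene and zygotene spermatocytes (LZ) were compared with whole testis of 7-day-old mice (D7) by small RNA sequencing. The comparison used 4 of the 20 libraries of the series, 2 of LZ and 2 of D7, and was read from the LZ and D7 columns of 1 table of counts for all 10 small RNA libraries. All mice were wild type C57BL/6J. LZ cells were separated by size and density at unit gravity (STA-PUT) from decapsulated testes of adults of 70 to 80 days, and the labels give them as over 90% pure by microscopy with no sign of somatic cells. D7 testes were decapsulated and extracted whole, at 7 days after birth. RNA was extracted with TRIzol, and each group has 2 biological replicates. LZ and D7 also differ in the age of the animal and in the isolation of the cells, which cannot be told apart from the stage. In a whole testis, fewer cells of a type and less RNA per cell cannot be told apart either.

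MicroRNAs (miRNAs) are short RNAs cut from hairpin precursors by Drosha and then Dicer and held by Argonaute proteins. They guide Argonaute to messenger RNAs mainly through the seed, bases 2 to 8 counted from the 5′ end, and miRNAs with the same seed form a family that can share targets. Leptotene and zygotene are the stages of meiotic prophase in which chromosomes condense, break and pair. The testis at D7 holds spermatogonia among Sertoli cells, peritubular cells, Leydig cells and vessels, so the 2 samples differ both in the germ cells they hold and in their somatic share.

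Each of the 4940 rows of the table is one 7-base seed, and its value is the raw count of reads with that seed. A row was named only where bases 2 to 8 of a mature mouse miRNA of the RefSeq table (GRCm38.p6) spell that seed, which held for 1127 rows. A name therefore stands for every listed miRNA with the seed, and for any other RNA that starts with the same letters. Coordinates below are those of the RefSeq table, while the submitters' processing notes name mm9. Sequences are shown for the families on which the results turn, with the seed in capitals. The 4 named members of the miR-34/miR-449 family share their seed and differ in the base before it:
miR-34a-5p: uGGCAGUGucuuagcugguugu
miR-34b-5p: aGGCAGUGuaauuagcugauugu
miR-449a-5p: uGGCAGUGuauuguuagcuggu
miR-449c-5p: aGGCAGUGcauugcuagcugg
Their genes lie at chr4:150068473-150068494, plus strand (miR-34a), chr9:51103610-51103632, minus strand (miR-34b), chr13:113037549-113037570, plus strand (miR-449a) and chr13:113036008-113036028, plus strand (miR-449c).

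Other families that were higher in LZ are represented by miR-184-3p (chr9:89802263-89802284, minus strand), miR-29a-3p (chr6:31062673-31062694, minus strand), miR-191-5p (chr9:108568325-108568347, plus strand) and members of 1 cluster on the X chromosome, miR-871-3p (chrX:66810438-66810460, minus strand), miR-881-3p (chrX:66801954-66801975, minus strand) and miR-743a-3p (chrX:66776760-66776781, minus strand). No seed is shared among these 6.
miR-184-3p: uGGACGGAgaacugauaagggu
miR-29a-3p: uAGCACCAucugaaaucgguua
miR-191-5p: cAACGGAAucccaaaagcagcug
miR-871-3p: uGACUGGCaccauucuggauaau
miR-881-3p: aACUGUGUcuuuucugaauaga
miR-743a-3p: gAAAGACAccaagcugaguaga
Families that were lower in LZ are represented by miR-127-3p (chr12:109592888-109592909, plus strand) and miR-434-3p (chr12:109594565-109594586, plus strand) of the imprinted chromosome 12 cluster, miR-199a-3p of the Mir199a-2 gene (chr1:162217883-162217904, plus strand), miR-125b-5p of the Mir125b-2 gene (chr16:77646279-77646300, plus strand), miR-202-5p (chr7:139957732-139957752, minus strand) and let-7a-5p (chr13:48538239-48538260, minus strand).
miR-127-3p: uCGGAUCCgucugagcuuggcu
miR-434-3p: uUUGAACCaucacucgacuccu
miR-199a-3p: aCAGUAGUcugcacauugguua
miR-125b-5p: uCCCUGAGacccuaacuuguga
miR-202-5p: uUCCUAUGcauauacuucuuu
let-7a-5p: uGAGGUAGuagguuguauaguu

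The libraries differed in depth and in how well replicates agreed. The LZ libraries held 820461 and 119746 counts and the D7 libraries 3392587 and 8591736, so each LZ library was 4.14 to 71.7 times shallower than each D7 library. The LZ libraries had a count in 1145 and 588 rows, and the D7 libraries in 1813 and 2341. At the depth of the shallowest library, 119746 counts, the expected numbers were 580.6 and 588 rows in LZ libraries and 614.7 and 613.7 rows in D7 libraries. A floor of 3 counts was worth 4.19 and 15 CPM (reads of a row relative to the TMM-adjusted size of its library) in the LZ libraries, and 0.897 and 0.350 CPM in the D7 libraries. The standard deviation of the log2 difference between replicates over the rows tested was 1.65 in LZ and 0.38 in D7. In the RNA libraries labelled with the same stages, the summed CPM of 8 Sertoli cell transcripts was 59.3 and 16.9 in LZ, against 2046 and 2115 in D7, and all 8 were lower in LZ. Among all 16872 genes tested in the RNA libraries, 36.5% were higher and 42% lower in LZ. Of 7 leptotene and zygotene transcripts, 4 were higher in LZ and 3 did not pass the test, with summed CPM of 158 and 272 in LZ and 74.3 and 70.2 in D7. Transcripts of later germ cells were far more abundant in the same LZ libraries: 6 pachytene transcripts summed to 13265 and 15845 CPM in LZ, against 6.78 and 5.65 CPM in D7, and 7 spermatid transcripts to 48665 and 58945 CPM in LZ, against 1.16 and 1.53 CPM in D7. Prm2, a protamine that packs sperm DNA, had 21727 and 21764 CPM in LZ, against 0 and 0.0614 CPM in D7. The RNA of the LZ libraries thus held spermatid transcripts at a higher level than leptotene and zygotene ones, which goes against the label. The part of later germ cells in the small RNA results was not tested.

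More families were lower in LZ than higher. Of 745 rows with enough counts to be tested, 463 (62.1%) passed an adjusted p of 0.05 by edgeR's quasi-likelihood test, 185 (24.8%) higher and 278 (37.3%) lower in LZ. The median log2 fold change, LZ over D7 as throughout, was -0.91. Both LZ libraries lay above both D7 libraries in 196 rows (26.3%) and below both in 389 rows (52.2%), and 21 of the rows that passed had overlapping libraries. In 79 tested rows no LZ library had a count and in 53 no D7 library did. The counts depend on the LZ libraries: without LZ replicate 1, 117 rows were higher and 116 lower. The split also moved with the scaling, as edgeR called 207 higher and 250 lower with median-ratio factors, and 213 and 232 with upper-quartile factors. DESeq2, which also differs in its filter and scaling, called 210 of 3766 rows higher and 198 lower, which makes 51.5% of its calls higher against 40% by edgeR. Other scalings moved the log2 fold change of all rows by 0.03 to 0.50 upward in the median, so a fold change near 0 has no firm sign. The 10 most abundant rows held 76.8% and 71% of the counts in LZ libraries, and 69.1% and 69.2% in D7 libraries. In the plot of mean levels in both groups the miR-34/miR-449 row has the highest LZ level and lies far above the line of equal levels.

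**Figure D1:**
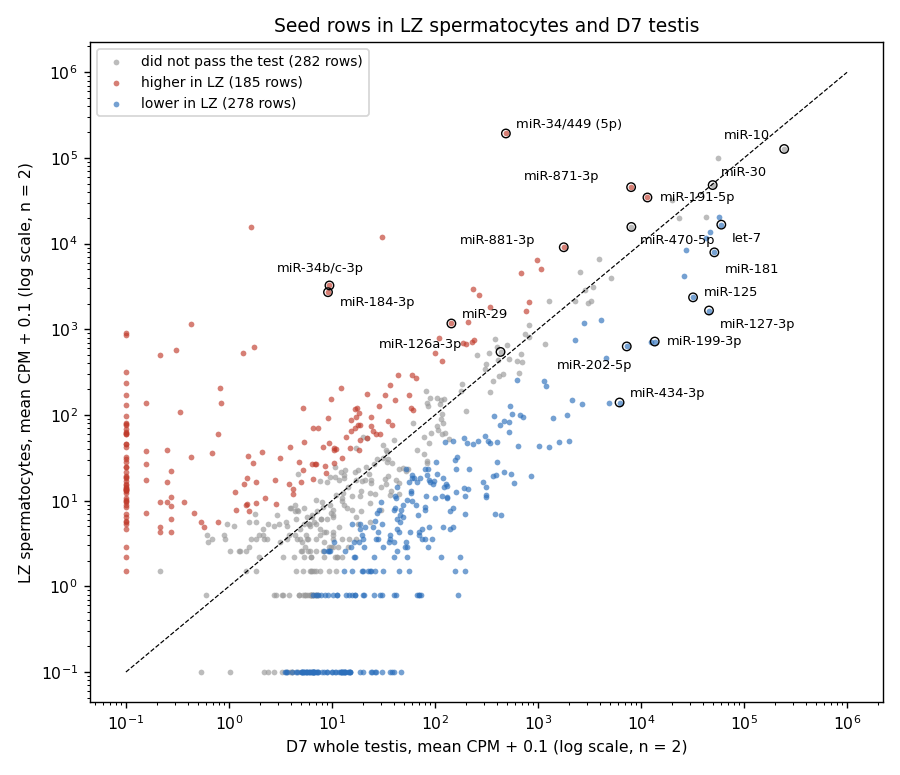
Mean CPM of each of the 745 tested rows in LZ spermatocytes (vertical axis) against D7 whole testis (horizontal axis), both on a log scale after adding 0.1. Red rows (185) were higher and blue rows (278) lower in LZ, grey rows did not pass the test, the dashed line marks equal levels, and rows with no count in one group lie along the left or bottom edge.

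The miR-34/miR-449 family was the most abundant row of the LZ libraries and a minor one at D7. This family is abundant in adult testis and in ciliated epithelia, and mice that lack both of its gene clusters are infertile. Its 5p row had 236172 and 149937 CPM in LZ libraries, against 392 and 584 CPM in D7 libraries. It held 20.6% and 25.1% of all counts in LZ libraries, and 0.0387% and 0.0583% in D7 libraries. The means were 193054 ± 60978 CPM in LZ and 488 ± 135 CPM in D7 (SD, n = 2 each), a 395-fold difference (log2 fold change 8.63 ± 0.58, SE, adjusted p = 5.3e-06 by edgeR). The other strand moved with it, as the row of miR-34b-3p and miR-34c-3p had 4063 and 2439 CPM in LZ libraries, against 7.17 and 11.5 CPM in D7 libraries (log2 fold change 8.42 ± 0.78, adjusted p = 1.3e-05 by edgeR). The 2 rows were the only ones of this list to be tested, and both were higher under every alternative run, with log2 fold changes that stayed above 7.88.

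The base before the seed tells some members of the family apart. Reads that begin 1 base upstream of the annotated start fall into a row that contains that base. Among the named members it is A in miR-34b-5p and miR-449c-5p and U in miR-34a-5p and miR-449a-5p. miR-34c-5p and miR-449b have no RefSeq entry, so their base was not read. Whether their reads are part of either row was not tested. The row with A had 412 and 96 counts in LZ libraries, against 5 and 9 in D7 libraries, or 575 and 479 CPM against 1.49 and 1.05 CPM. It rose like the main row (log2 fold change 8.72 ± 0.80, adjusted p = 1.3e-05 by edgeR). The row with U, whose letters are also the seed of miR-3069-5p, had 1 and 0 counts in LZ libraries and 1 and 4 in D7 libraries. Such early starts made up 0.243% and 0.319% of the level of the main row in LZ libraries, and how often each member starts early was not tested.

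Most rows of the X-linked spermatogenic cluster were higher in LZ. These fast-evolving miRNAs are known for expression in testis, and all but miR-201 and miR-547 lie between Mir743 and Mir465 on the X chromosome. Of 26 tested rows of this list, 19 were higher, none was lower and 7 did not pass edgeR's test, with a median log2 fold change of 2.40 against -0.91 over all rows tested, of which 24.8% were higher. Summed over the list, the level was 116794 and 60484 CPM in LZ libraries, against 25001 and 23988 CPM in D7 libraries. Without LZ replicate 1 the count of higher rows was 13 of 26, and without LZ replicate 2 it was 19 of 26. At an unadjusted p under 0.05, 20 were higher and 0 lower, and DESeq2 called 23 of 27 higher and 0 lower. Its most abundant member, miR-871-3p, had 66388 and 24904 CPM in LZ libraries, against 8039 and 7985 CPM in D7 libraries, so the LZ libraries differed from each other by more than the D7 libraries did while both lay above them. That is a 5.70-fold difference (log2 fold change 2.51 ± 0.62, adjusted p = 0.0047 by edgeR). The level of miR-881-3p was 9799.6 and 8346 CPM in LZ libraries, against 1732 and 1826 CPM in D7 libraries, a rise of 5.10-fold (adjusted p = 0.0012 by edgeR). For miR-743a-3p, whose row also holds miR-743b-3p, the level was 3897 and 1182 CPM in LZ libraries, against 261 and 276 CPM in D7 libraries (log2 fold change 3.25 ± 0.67, adjusted p = 0.0018 by edgeR).

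Not every member of that cluster rose. The second most abundant row, miR-470-5p, had 17801 and 13529.5 CPM in LZ libraries, against 8262 and 7857 CPM in D7 libraries, with no overlap but an adjusted p of 0.11 by edgeR, and it passed under 9 of 14 alternatives, DESeq2 among them. The row of miR-465a-5p and its copies had 6245 and 3143 CPM in LZ libraries, against 2658 and 2435 CPM in D7 libraries, and also did not pass (log2 fold change 0.88 ± 0.50, adjusted p = 0.14 by edgeR). The 5p strand of miR-463 was at 703 and 339 CPM in LZ libraries, against 726 and 641 CPM in D7 libraries, the 1 tested row of the list with a negative log2 fold change (-0.38 ± 0.54). Strands of 1 hairpin differed, since miR-470-3p, the opposite strand of miR-470-5p, had 121 and 20 CPM in LZ libraries, against 6.28 and 6.65 CPM in D7 libraries, and rose (log2 fold change 3.61 ± 0.65, adjusted p = 0.00072 by edgeR). For miR-881-5p, with 22 and 12 counts in LZ libraries and none in D7 libraries, the level pooled over LZ was at least 147-fold higher, against a floor of 3 counts over the D7 group.

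Of 50 tested rows of miRNAs found only on the X chromosome, 18 (36%) were higher and 16 (32%) lower in LZ, beside 24.8% and 37.3% of all rows tested. A second X-linked cluster, which holds Mir322, Mir351, Mir450, Mir503 and Mir542, had 9 of its 11 tested rows lower and none higher, with a median of -3.66. Of these 11 rows, 7 hold miRNAs of this cluster alone, and all 7 were lower. The others share their seed with miRNAs elsewhere, among them the miR-125 row, which holds miR-351-5p. In that cluster miR-450b-5p had 34.9 and 4.99 CPM in LZ libraries, against 352 and 426 CPM in D7 libraries (adjusted p = 0.00042 by edgeR). Likewise miR-322-3p had 18.1 and 4.99 CPM in LZ libraries, against 323 and 307 CPM in D7 libraries (adjusted p = 0.00022 by edgeR). Both LZ libraries lay below both D7 libraries for each. The row of miR-322-5p also holds miR-15 and miR-16 and did not pass. The plot of log2 fold changes along 4 clusters sets these X-linked clusters beside those of chromosome 12.

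**Figure D2:**
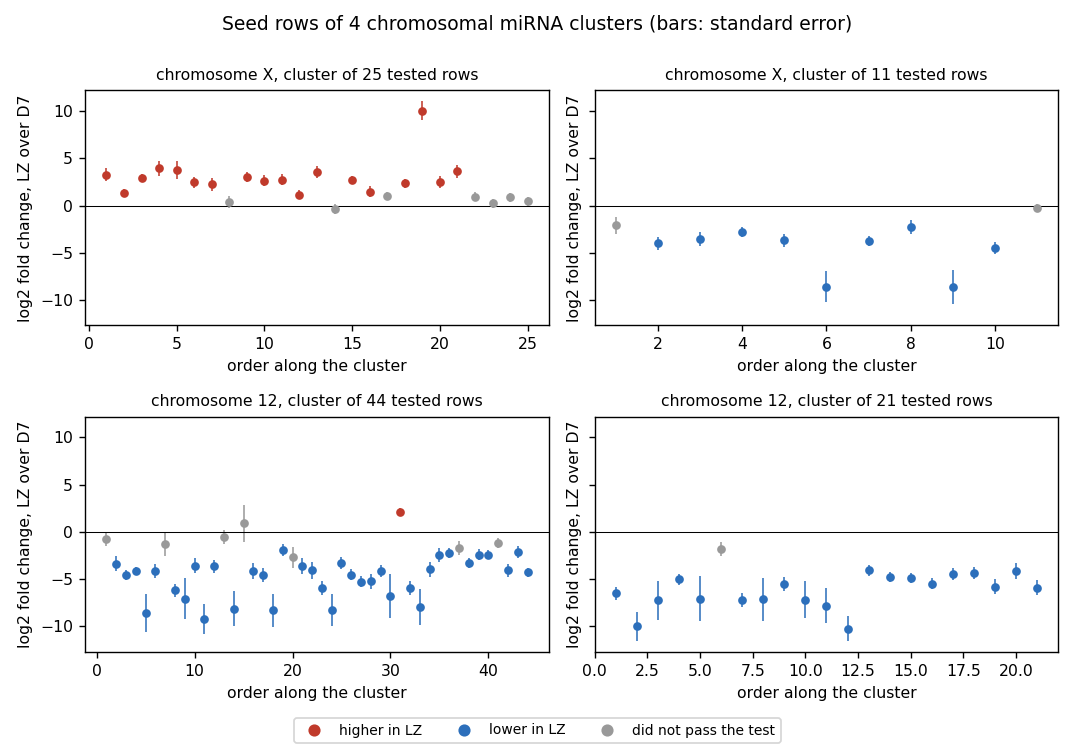
Log2 fold change, LZ over D7, of each tested row in 4 chromosomal miRNA clusters, in their order along the chromosome (horizontal axis, rank only), with standard errors as bars. In the upper left cluster of chromosome X 18 of 25 rows were higher, in the upper right one 9 of 11 were lower, and in the chromosome 12 clusters 36 of 44 and 20 of 21 were lower.

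Several families outside these clusters also rose. miR-184-3p, a single-copy miRNA of chromosome 9, had 3174 and 2249.9 CPM in LZ libraries, against 8.67 and 9.44 CPM in D7 libraries, a 298-fold difference (log2 fold change 8.22 ± 0.73, adjusted p = 1.3e-05 by edgeR). The miR-29 family, known to repress collagen and DNA methyltransferase transcripts, had 1790.0 and 549 CPM in LZ libraries, against 148 and 140.5 CPM in D7 libraries, and was 8.16-fold higher (adjusted p = 0.0015 by edgeR). It stands in the smooth muscle and fibroblast list, where it was the 1 member that rose. miR-191-5p had 46558 and 22589 CPM in LZ libraries, against 11249 and 11841 CPM in D7 libraries (log2 fold change 1.58 ± 0.60, adjusted p = 0.038 by edgeR), and it lost the call without either D7 library. miR-425-5p, encoded beside it in the same host gene, had 1385 and 1078 CPM in LZ libraries, against 189 and 229 CPM in D7 libraries (log2 fold change 2.56 ± 0.46, adjusted p = 0.00077 by edgeR), and its row also holds miR-489-3p. The miR-192/215 row, of an epithelial family, had 5881 and 7099 CPM in LZ libraries, against 937 and 1016 CPM in D7 libraries (adjusted p = 0.00031 by edgeR). Encoded next to it, miR-194-5p had 191 and 105 CPM in LZ libraries, against 36.2 and 44.8 CPM in D7 libraries (adjusted p = 0.0026 by edgeR). Groups were apart in both. miR-1839-5p reached 2762 and 3143 CPM in LZ libraries, against 250.5 and 218 CPM in D7 libraries (log2 fold change 3.66 ± 0.53). The last 4 rows were named after their values were seen.

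The miR-17-92 families, known for promoting proliferation, split. Of 4 rows, miR-18 and miR-19 were higher and the other 2 did not pass, beside 24.8% higher and 37.3% lower among all rows tested. miR-18a-5p and miR-18b-5p together had 343 and 195 CPM in LZ libraries, against 63.7 and 67.6 CPM in D7 libraries (log2 fold change 2.06 ± 0.41, adjusted p = 0.0014 by edgeR). The miR-19 row had 2143 and 1093 CPM in LZ libraries, against 708 and 811 CPM in D7 libraries, and was close to the threshold (adjusted p = 0.049 by edgeR), which it missed without either D7 library. The miR-17/20/106 row had 2610.3 and 1477 CPM in LZ libraries, against 2924 and 3211 CPM in D7 libraries, so its LZ libraries were the lower ones. The miR-25/92 row had 25139 and 40169 CPM in LZ libraries, against 22059 and 18223 CPM in D7 libraries, so its LZ libraries were the higher ones. The embryonic miR-290-295 and miR-302 list, which shares the miR-25/92 row, had 1 of 6 tested rows higher (miR-290a-3p), 1 lower (miR-290a-5p with miR-292a-5p and miR-293-5p) and 4 that did not pass. The higher row had 131 and 99.8 CPM in LZ libraries, against 62.2 and 58.8 CPM in D7 libraries. The lower row had 8.37 and 20 CPM in LZ libraries, against 42.7 and 42.4 CPM in D7 libraries. The lower call was lost without LZ replicate 1 (log2 fold change -0.24), and neither call was made without D7 replicate 1 or without D7 replicate 2.

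Blood cell miRNAs were higher in LZ in part. Of 6 tested rows, 3 rose and 3 did not pass, beside 24.8% higher among all rows tested. The summed level was 1815 and 708 CPM in LZ, against 393 and 327 CPM in D7. miR-142a-5p, found in white blood cells, had 998 and 379 CPM in LZ libraries, against 173 and 202 CPM in D7 libraries (adjusted p = 0.028 by edgeR). The red cell miRNA miR-451a had 589 and 274 CPM in LZ libraries, against 165 and 70.8 CPM in D7 libraries (adjusted p = 0.021 by edgeR). Without LZ replicate 1 or either D7 replicate, at most 1 of the 6 passed. miR-223-3p had 106 and 4.99 CPM in LZ libraries, against 15.5 and 23.9 CPM in D7 libraries, and overlapped. In the RNA libraries of the same stages, 3 of 3 tested macrophage transcripts were lower in LZ, beside 42% lower among all genes tested there. Their summed CPM was 9.24 and 3.51 in LZ and 49.1 and 62.0 in D7. The globins Hbb-b1 and Hba-a1 had no count in LZ and 1 count in all in D7. miR-126a-3p, the endothelial marker, had 1019.9 and 69.8 CPM in LZ libraries, against 421 and 444 CPM in D7 libraries, so LZ replicate 1 lay above and LZ replicate 2 below both D7 libraries. The 3 endothelial transcripts were lower in LZ, again beside 42% of all genes. Their summed CPM was 38.4 and 8.21 in LZ and 185 and 182 in D7. In CPM, LZ replicate 1 was the higher LZ library for every blood row named here and for miR-126a-3p. It was likewise the higher one for rows such as miR-871-3p, miR-10 and miR-30. For miR-34/miR-449 it was higher in CPM, with TMM factors of 0.874 in LZ replicate 1 and 1.67 in LZ replicate 2. The share of all counts of that row was 20.6% in LZ replicate 1 and 25.1% in LZ replicate 2. The part of such cells in these results was not tested.

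The largest fold changes belonged to rows without a miRNA name. Of the 12 rows with the largest rise among those with at least 100 CPM in LZ, 10 had no RefSeq name, and 1 of these 10 is the early start of miR-34/miR-449 described above. The row CUCCAGC had 512 and 224 counts in LZ libraries and none in D7 libraries, which is at least 3189-fold higher against the D7 group floor. CCAUGAA had 437 and 221 counts in LZ libraries and none in D7 libraries, at least 2851-fold higher. UGAGACA had 183 and 77 counts in LZ libraries and none in D7 libraries, at least 1127-fold higher. Another 3 rows had no D7 count: UUCUGGG was at least 810.2-fold higher, the row AUCUUGU at least 641-fold and the row CUGGGUU at least 468-fold. AAGAAAC had 474 and 1831 CPM in LZ libraries, against 0.299 and 0.350 CPM in D7 libraries. GAGACAG rested on 2 counts over the D7 group, a ratio of 3282 (exact 95% interval 904 to 27175, counting error only). GUUUUCU rested on 1 count there, a ratio of 1781 (314 to 70844). All 9 were also found in the pachytene libraries, and the RNAs they come from were not identified here. Rows with neither a name nor a 1-base shift from a named seed made up 16.7% and 14.3% of the counts in LZ libraries, against 7.32% and 7.57% in D7 libraries. Of 237 such rows tested, 81 were higher and 59 lower, beside 24.8% higher and 37.3% lower among all rows tested. Most of their counts lay in few rows. GAGAUGA alone held 13.3% and 7.98% of all counts in LZ libraries, against 5.35% and 5.67% in D7 libraries. UUGUUCG held 0.621% and 2.77% in LZ libraries, against 0.00324% and 0.00287% in D7 libraries. A row without a name can hold a miRNA that has no RefSeq entry.

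The remaining 2 of the 12 match seeds of little-known miRNAs. The row of miR-7210-5p had 7969 and 23527 CPM in LZ libraries, against 1.79 and 1.28 CPM in D7 libraries, and LZ replicate 2 held about 2.95 times the level of LZ replicate 1. It rose by 13.34 ± 1.14 on the log2 scale (adjusted p = 1.3e-05 by edgeR). The row of miR-468-5p had 691 and 314 CPM in LZ libraries, against 0 and 0.233 CPM in D7 libraries, and rested on 2 counts over the D7 group, a ratio of 3627 (999 to 30019). A match of 7 letters does not show that these miRNAs are the source. The most abundant row without a name, GAGAUGA, ranked in the top 10 of both groups. It had 152460.0 and 47697 CPM in LZ libraries, against 54229.5 and 56755 CPM in D7 libraries, and did not pass (adjusted p = 0.17 by edgeR). Listed miRNAs with no RefSeq entry, such as miR-143-3p, could not be matched to a row. Whether GAGAUGA holds any of them was not tested.

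**Figure D3:**
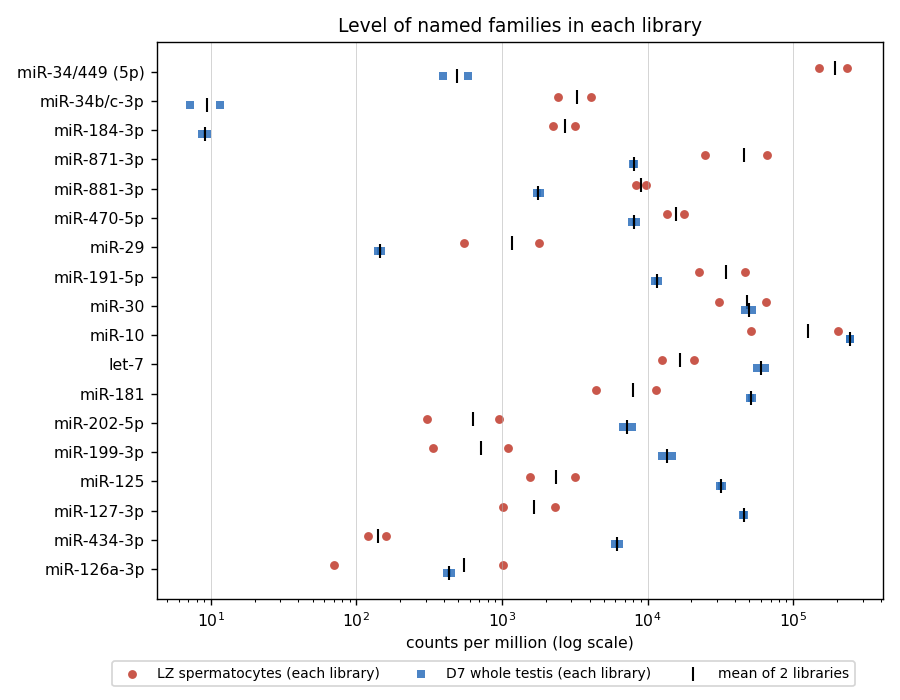
Level in CPM (log scale) of 18 named rows in each LZ library (red circles) and each D7 library (blue squares), with the mean of 2 libraries as a vertical tick. The miR-34/miR-449, miR-34b/c-3p and miR-184-3p rows are separated by more than 100-fold, the lower rows from let-7 to miR-434-3p show all LZ libraries below D7, and miR-30 and miR-126a-3p overlap.

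The imprinted Dlk1-Dio3 cluster fell almost as a whole. This long array on chromosome 12 is expressed from the maternal chromosome and is active in embryonic, placental and brain tissue. Of 43 rows on the list 40 were tested by edgeR, and 37 of these were lower, none was higher and 3 did not pass, beside 37.3% lower among all rows tested. At an unadjusted p under 0.05, 39 were lower and 0 higher, and DESeq2 called 34 of 43 lower and 0 higher. Its median log2 fold change was -4.47, or -4.10 with rows at 0 in LZ set to their bound. The summed level was 4363 and 2619 CPM in LZ libraries, against 78914 and 79902 CPM in D7 libraries. Without LZ replicate 1, where the shallower library stands alone, 24 of 43 were lower, and without LZ replicate 2 it was 38 of 43. miR-127-3p, which is encoded opposite to the retrotransposon-derived gene Rtl1, had 2303 and 1013 CPM in LZ libraries, against 45997 and 45409 CPM in D7 libraries, a level 27.5-fold lower in LZ (log2 fold change -4.78 ± 0.55, adjusted p = 3.9e-05 by edgeR). miR-434-3p from the same stretch had 120.0 and 159.6 CPM in LZ libraries, against 6398 and 5984 CPM in D7 libraries, and was 44.8-fold lower (adjusted p = 2.7e-05 by edgeR). The row of miR-411-5p, shared with miR-7229-5p, had 721 and 713 CPM in LZ libraries, against 12204 and 12745 CPM in D7 libraries (log2 fold change -4.12 ± 0.44). Another abundant member, miR-541-5p, had 552 and 379 CPM in LZ libraries, against 4411 and 4659 CPM in D7 libraries (log2 fold change -3.28 ± 0.54). Both LZ libraries lay below both D7 libraries in all 4.

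The same cluster supplied most of the largest falls. Of the 12 rows that fell most among those with at least 100 CPM in D7, 7 were named by miRNAs of this cluster, and an 8th, GCUCGAC, is the early start of miR-434-5p. miR-540-3p, in a row with miR-6915-5p, had 1 and 0 counts in LZ libraries, against 573 and 1395 in D7 libraries, a ratio of 0.00660 (0.000167 to 0.0368). miR-673-5p (in a row with miR-6985-3p), miR-380-3p and miR-341-3p also rested on 3 or fewer LZ counts, with ratios of 0.0113, 0.0135 and 0.0179. miR-431-5p had 6.98 and 24.9 CPM in LZ libraries, against 577 and 579.9 CPM in D7 libraries (log2 fold change -5.51 ± 0.75). For miR-381-3p the values were 68.4 and 29.9 CPM in LZ libraries, against 1882 and 2157 CPM in D7 libraries (log2 fold change -5.27 ± 0.56). These ratios on 3 or fewer counts carry wide intervals, while miR-431-5p and miR-381-3p had counts in both LZ libraries. The 4 others were miR-335-5p, miR-181a-2-3p, miR-708-3p and the unnamed row CGAUCGG. The letters CGAUCGG also occur within miR-341-3p of this cluster, and whether its reads fill that row was not tested. miR-335-5p, from the imprinted Mest gene, had 8.37 and 4.99 CPM in LZ libraries, against 463 and 416 CPM in D7 libraries, and was 59.0-fold lower (adjusted p = 2.3e-05 by edgeR). miR-181a-2-3p had 14 and 24.9 CPM in LZ libraries, against 952 and 764 CPM in D7 libraries, and miR-708-3p and CGAUCGG each rested on 3 LZ counts. One row of the chromosome 12 stretch went the other way, at 71.2 and 39.9 CPM in LZ libraries, against 12.6 and 14.8 CPM in D7 libraries, and it is shared by miR-668-5p and miR-467h, which lies elsewhere, while miR-668-3p was lower (log2 fold change -5.95 ± 0.74).

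Several families of connective tissue, and the miR-125, miR-99/100 and miR-196 families, were lower in LZ. In the smooth muscle and fibroblast list 4 of 6 tested rows were lower, 1 was higher (miR-29) and 1 did not pass, beside 37.3% lower and 24.8% higher among all rows tested. Of its 11 miRNAs, 5 have no RefSeq entry and were not read: miR-143-3p, miR-145a-5p, miR-133a-3p, miR-1a-3p and miR-199b-5p. The counts therefore leave out smooth muscle miRNAs of the list. miR-199a-3p, a marker of mesenchymal cells, had 1105 and 334 CPM in LZ libraries, against 14613 and 12562 CPM in D7 libraries, and was 18.7-fold lower (log2 fold change -4.23 ± 0.59, adjusted p = 0.00015 by edgeR). Its other strand, miR-199a-5p, had 266 and 34.9 CPM in LZ libraries, against 2110.4 and 2166 CPM in D7 libraries. The miR-148/152 row had 10722 and 12522 CPM in LZ libraries, against 45587 and 39485 CPM in D7 libraries, and lost the call without LZ replicate 1 (log2 fold change -0.91). The 5 transcripts of peritubular cells and matrix summed to 118 and 62.1 CPM in LZ RNA libraries, against 3605 and 3877 CPM in D7 RNA libraries. All 5 were lower, beside 42% lower among all genes tested there. Of the Hox, miR-99 and miR-125 list 3 of 4 rows were lower. The miR-125 row, which includes miR-351-5p, had 3160.0 and 1561 CPM in LZ libraries, against 32581 and 31404 CPM in D7 libraries (log2 fold change -3.76 ± 0.55). The miR-99/100 row had 6591 and 1771 CPM in LZ libraries, against 28317 and 23614 CPM in D7 libraries (log2 fold change -2.63 ± 0.61). The miR-196 row, encoded among the Hox genes, had 37.7 and 4.99 CPM in LZ libraries, against 492 and 452 CPM in D7 libraries (log2 fold change -4.19 ± 0.68). The groups were apart in all 3. The fourth, miR-10, which is also encoded among the Hox genes, was the most abundant row at D7 and had 203077 and 51419 CPM in LZ libraries, against 246240.0 and 244207 CPM in D7 libraries, which did not pass (log2 fold change -0.95 ± 0.74, adjusted p = 0.28 by edgeR).

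miR-202, a gonad-specific miRNA of Sertoli and germ cells, was lower on both strands. Its 5p strand had 958 and 304 CPM in LZ libraries, against 6746 and 7793 CPM in D7 libraries, 11.4-fold lower in LZ (log2 fold change -3.51 ± 0.56, adjusted p = 0.00036 by edgeR). The 3p strand, in a row with let-7j, had 46.0 and 0 CPM in LZ libraries, against 223 and 208 CPM in D7 libraries. let-7, which restrains proliferation and is blocked by Lin28 in early cells, had 20752 and 12557 CPM in LZ libraries, against 64142 and 56184 CPM in D7 libraries (log2 fold change -1.85 ± 0.40, adjusted p = 0.0024 by edgeR). Every let-7 gene and miR-98 share that row with miR-1961, except for let-7j, which has the seed of miR-202-3p. miR-181 had 11403 and 4420.0 CPM in LZ libraries, against 52257 and 50731 CPM in D7 libraries, 6.50-fold lower (adjusted p = 0.0016 by edgeR). miR-22-3p had 27987 and 12931 CPM in LZ libraries, against 56139 and 57848 CPM in D7 libraries. miR-26 had 22494 and 4904 CPM in LZ libraries, against 45985 and 47809 CPM in D7 libraries. Both were lower, with calls that were lost without either D7 library, and for miR-26 also without LZ replicate 2. Over the 16 broadly expressed rows, 9 were lower, 2 were higher (miR-191 and miR-425) and 5 did not pass, with a median of -1.34, beside 37.3% lower, 24.8% higher and a median of -0.91 over all rows tested. Only 3 and 4 rows of this list were lower without D7 replicate 1 and without D7 replicate 2.

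Other abundant or tissue-restricted families did not pass the test or gave single calls. miR-30 had 65413 and 31095 CPM in LZ libraries, against 46790.3 and 52417 CPM in D7 libraries (log2 fold change -0.04 ± 0.43). The miR-15/16 row had 23528 and 16149 CPM in LZ libraries, against 21968 and 24330.4 CPM in D7 libraries (log2 fold change -0.22 ± 0.43). The groups overlapped in each, and another scaling turned the sign of both. The cluster of miR-183, miR-182 and miR-96, typical of sensory cells, had 0 of 3 rows past the threshold by edgeR, by DESeq2 or at an unadjusted p under 0.05. Its most abundant row, miR-182-5p, had 2281 and 3911 CPM in LZ libraries, against 3809 and 2964 CPM in D7 libraries. Of 4 spermatogonial rows, 1 was higher, 1 lower and 2 did not pass, beside 24.8% higher and 37.3% lower among all rows tested. miR-146, the higher one, had 2965 and 668 CPM in LZ libraries, against 332 and 351 CPM in D7 libraries (adjusted p = 0.045 by edgeR). It missed the threshold without LZ replicate 1 or either D7 library. The lower one, miR-221/222, had 36.3 and 0 CPM in LZ libraries, against 130.0 and 110.2 CPM in D7 libraries, and it too missed the threshold without either D7 library. miR-21a-5p had 4995 and 2859 CPM in LZ libraries, against 4920.5 and 5212 CPM in D7 libraries, and miR-203-3p overlapped likewise. The 5 spermatogonial transcripts that passed, among 6, were all lower in LZ RNA libraries, beside 42% lower among all genes tested there. Of the epithelial miR-200 families, miR-200b/c was lower at 144 and 49.9 CPM in LZ libraries, against 381 and 375 CPM in D7 libraries, a call lost without either D7 library. The miR-141/200a row had 212 and 105 CPM in LZ libraries, against 81.3 and 96.0 CPM in D7 libraries, and did not pass, although it did with DESeq2. Neither miR-204/211 nor miR-130/301 passed. Among miRNAs of other organs, the neural miR-9-5p was higher at 239 and 349 CPM in LZ libraries, against 66.4 and 54.1 CPM in D7 libraries (adjusted p = 0.0013 by edgeR). The cardiac miR-208 row had no LZ count, against 23.0 and 26.1 CPM in D7 libraries. These were the only rows of that list to be tested. Of its 7 miRNAs, miR-122-5p, miR-124-3p and miR-375-3p have no RefSeq entry and were not read.

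**Figure D4:**
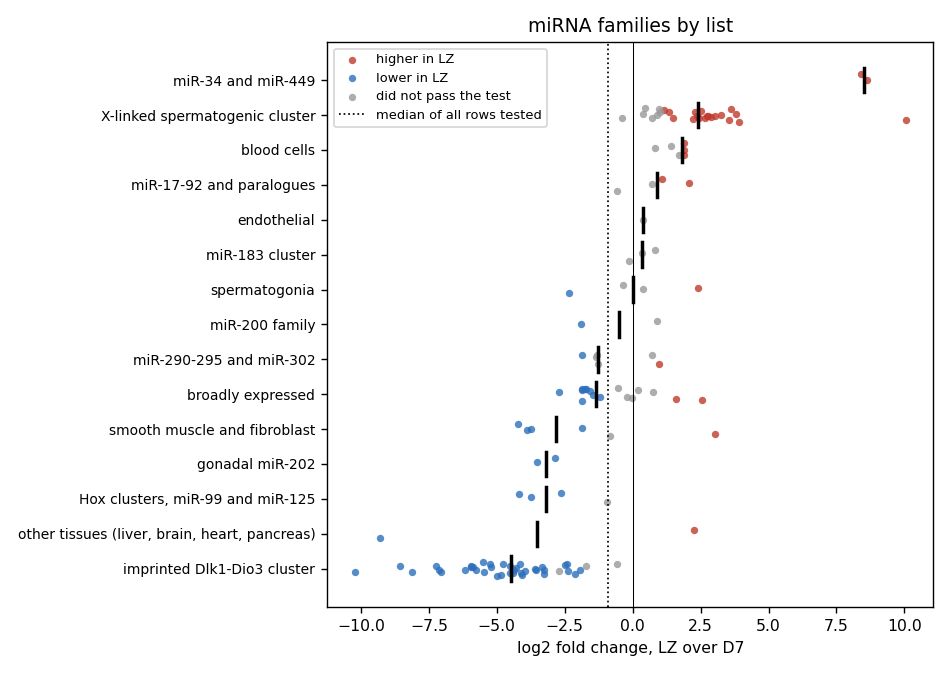
Log2 fold change, LZ over D7, of each tested row (points, red higher, blue lower, grey not past the test) in 15 lists of families, with the list's median as a black bar and the median of all tested rows (-0.91) as a dotted line. The miR-34/miR-449 rows lie near 8.5, the X-linked list has its median at 2.40 and the Dlk1-Dio3 list at -4.47.

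Strands of 1 hairpin were compared where both had been tested. In 139 hairpins with both strands tested, 14 had both higher, 53 both lower, 37 one strand past the threshold and 31 neither. Among all single rows tested 24.8% were higher and 37.3% lower. A row shared by several hairpins, such as that of miR-15/16, enters the count with each, so the 139 are not independent. In the 47 hairpins where each seed belongs to 1 miRNA, 7 had both higher, 16 both lower, 15 one strand past and 7 neither. There the strands' log2 fold changes differed by 2.12 in the median. The 4 of 139 with opposite calls were Mir290a, Mir296, Mir324 and Mir668. miR-296-5p had 226 and 119.7 CPM in LZ libraries, against 51.1 and 60.7 CPM in D7 libraries. miR-296-3p, cut from the same hairpin on chromosome 2, had 8.37 and 4.99 CPM in LZ libraries, against 47.2 and 44.5 CPM in D7 libraries. Their log2 fold changes were 1.66 ± 0.47 and -2.61 ± 0.54, and each seed belongs to 1 miRNA of the RefSeq table. miR-324-5p had 71.2 and 29.9 CPM in LZ libraries, against 16.4 and 20.5 CPM in D7 libraries. Its other strand, miR-324-3p, had no LZ count, against 12.9 and 12.6 CPM in D7. Rows shifted by 1 base from a named seed followed their parent: 98 of 128 had the same call and 2 the opposite one. One of these 2, the late start of miR-1839-5p, had 60 and 34.9 CPM in LZ libraries, against 211 and 196 CPM in D7 libraries, which was 2.17% and 1.11% of its parent in LZ and 84.1% and 90.1% in D7. Its letters can also come from another RNA.

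Transcripts that carry miRNAs and the RNAs that process them were read in the RNA libraries of the same stages, where 36.5% of 16872 genes were higher and 42% lower in LZ. Of 30 host transcripts, 7 were higher, 20 lower and 3 did not pass. In 41 pairs of a host and a tested row, 16 were lower on both sides, 2 higher on both, 8 opposite and the rest had at least 1 side that did not pass. Dnm3os, which carries miR-199a and miR-214, had 0 and 0.300 CPM in LZ, against 47.5 and 53.0 CPM in D7 (log2 fold change -7.63 ± 0.55, adjusted p = 1.6e-06 by edgeR), and all its 3 tested rows were lower. Mest had 2.43 and 1.40 CPM in LZ, against 77.9 and 71.5 CPM in D7 (-5.48 ± 0.39), in the direction of miR-335. Dalrd3, the host of miR-191 and miR-425, had 38.9 and 110.0 CPM in LZ, against 15.4 and 16.5 CPM in D7 (2.25 ± 0.50, adjusted p = 0.0022 by edgeR), a rise that was not past the threshold with plain library sizes, which moved the log2 fold change of all genes by -1.40 in the median. Rian, a transcript of the imprinted cluster, had 2.43 and 0.901 CPM in LZ, against 92.7 and 106 CPM in D7 (-6.28 ± 0.57), and both its tested rows, miR-341-3p and miR-370-3p, were lower. Meg3 beside it had 7.29 and 1.5 CPM in LZ, against 410.3 and 439 CPM in D7 (-7.01 ± 1.00).

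Other hosts and their miRNAs parted. Mirg lies in the same imprinted cluster and had 11.7 and 30.6 CPM in LZ, against 5.35 and 5.65 CPM in D7 (2.0 ± 0.46, adjusted p = 0.0025 by edgeR), while the 3 of its rows listed here, miR-379-5p, miR-410-3p and miR-382-5p, were all lower, at -3.35 ± 0.81, -4.30 ± 0.48 and -5.23 ± 0.80. The log2 fold change of Mirg was 1.06 without LZ replicate 2 and 0.58 with plain library sizes, and it missed the threshold in both. Mir17hg, the precursor of the miR-17-92 cluster, had 2.92 and 1.5 CPM in LZ, against 19.2 and 18.8 CPM in D7 (-3.31 ± 0.40, adjusted p = 4.3e-05 by edgeR), while miR-18 and miR-19 were higher, although their rows also hold copies from the X chromosome. H19 had 4.86 and 1.40 CPM in LZ, against 591 and 556 CPM in D7 (-7.90 ± 0.70), while its miR-675-5p was called higher on 5 and 3 counts in LZ libraries, against 0 and 3 in D7 libraries, a ratio of 34.7 (8.32 to 203). Lpp had 302 and 239.8 CPM in LZ, against 103 and 97.6 CPM in D7 and rose by 1.43 on the log2 scale, or by 0.06 and short of the threshold with plain library sizes, while both strands of miR-28a were lower, the 5p strand in a row with miR-708-5p.

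Of 12 genes of the miRNA pathway, 7 were lower in LZ RNA libraries, 2 higher and 3 did not pass, beside 42% lower and 36.5% higher among all genes tested. Dicer1, which cuts the hairpins in the cytoplasm, had 22.8 and 8.41 CPM in LZ, against 153 and 154 CPM in D7 (log2 fold change -3.41 ± 0.62, adjusted p = 0.00058 by edgeR). Drosha and Dgcr8, which cut the primary transcript in the nucleus, had log2 fold changes of -1.91 ± 0.38 and -1.15 ± 0.24. Of the Argonautes, listed under their older Eif2c symbols, Ago1 had 21.4 and 5.71 CPM in LZ, against 98.3 and 86.9 CPM in D7. Ago2, the one Argonaute of the 4 that cuts its targets, had 15.6 and 9.01 CPM in LZ, against 80.9 and 78.1 CPM in D7. Ago4 had 45.7 and 27.9 CPM in LZ, against 9.76 and 9.45 CPM in D7. Ago1 and Ago2 were lower (-2.93 ± 0.53 and -2.76 ± 0.69), Ago4 was higher (1.91 ± 0.29), and Ago3 did not pass. The call of Ago2 was lost without LZ replicate 2, and that of Ago4 with plain library sizes. Tarbp2, a Dicer partner, was the other gene that rose, at 64.7 and 100.4 CPM in LZ, against 11.6 and 10.6 CPM in D7 (2.90 ± 0.29), while Prkra, a second Dicer partner, was lower (-2.24 ± 0.26). Lin28a, which blocks let-7 maturation, had 6.81 and 2.50 CPM in LZ, against 73.4 and 65.9 CPM in D7 (-4.14 ± 0.74), and let-7 itself was also lower.

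**Figure D5:**
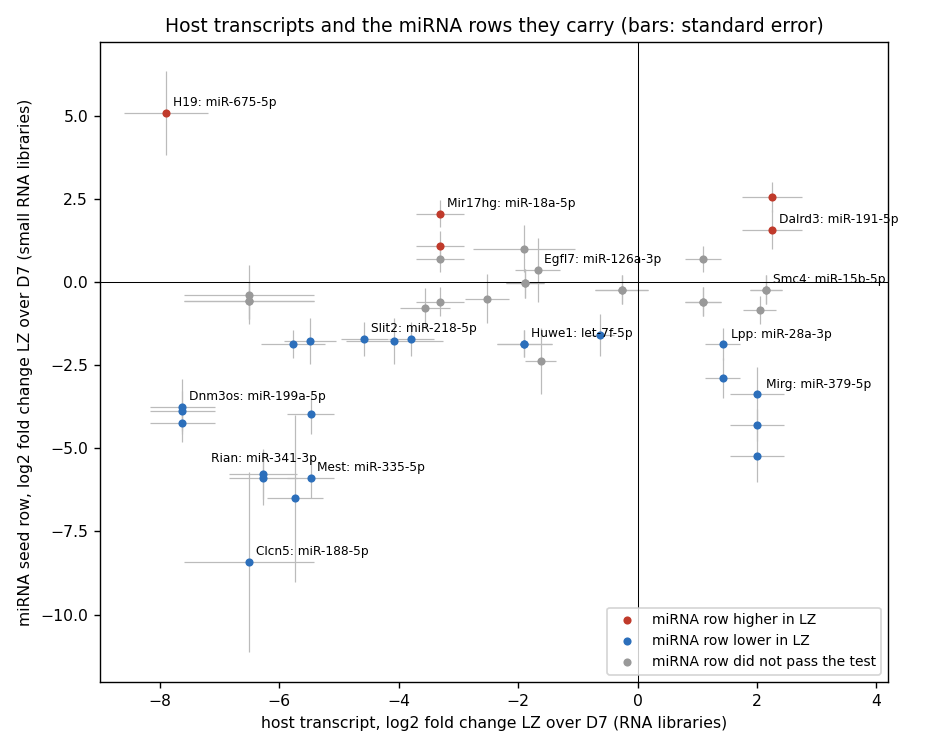
Log2 fold change, LZ over D7, of host transcripts in the RNA libraries (horizontal axis) against that of the miRNA seed row they carry in the small RNA libraries (vertical axis), with standard errors as bars. Points for Dnm3os, Rian and Mest are low on both axes, those for Dalrd3 high on both, and those for Mirg, Lpp, Mir17hg and H19 are high on one axis and low on the other.

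Levels in all 5 stages place these differences in the series. In CPM per library, miR-34/miR-449 had D1 399 and 304, D3 615 and 467, D7 392 and 584, LZ 236172 and 149937, and pachytene 108245 and 145943. It was thus low at all 3 whole-testis ages and high in both spermatocyte fractions. miR-871-3p had D1 896 and 1438, D3 2720.3 and 2931, D7 8039 and 7985, LZ 66388 and 24904, and pachytene 83981 and 27228, with D7 above D1 and D3. miR-127-3p had D1 54497 and 66901, D3 108463 and 73958, D7 45997 and 45409, LZ 2303 and 1013, and pachytene 1264 and 769, so both spermatocyte fractions lay below every whole-testis library. For let-7 the values were D1 57529.9 and 47966, D3 42004 and 44851, D7 64142 and 56184, LZ 20752 and 12557, and pachytene 13795 and 12122. miR-202-5p had D1 3402 and 3573, D3 3153 and 3306, D7 6746 and 7793, LZ 958 and 304, and pachytene 558 and 673, with its highest whole-testis levels at D7. No test was made across these stages here.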

How the data were processed

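Small RNA and RNA were each sequenced in 10 libraries of 5 stages, with LZ and D7 in 2 libraries each per assay. The authors deposited raw counts, per 7-base seed for small RNA and per gene symbol for RNA, 1 column per library. The submitters' processing notes name BWA 0.7.8, Bowtie 0.12.7, HTSeq 0.6.1, edgeR 3.6.8 and mm9, without saying which step each was used for, and how reads were trimmed, mapped or assigned to a seed is not given in the sources used here. The 5 HTSeq summary rows, 63.3% and 45.4% of the LZ and 49.0% and 48.5% of the D7 RNA column totals, were left out of all steps.

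For each assay 1 model over its 10 libraries was fitted in edgeR 4.0.16 (R 4.3.3, limma 3.58.1), with the quasi-likelihood F test after TMM scaling and filterByExpr with a minimum count of 10, so the other stages help set the spread. The contrast was LZ minus D7 and p-values were Benjamini-Hochberg adjusted over all rows or genes tested. The SE of a log2 fold change was its size divided by the square root of F. CPM values use TMM-scaled library sizes. Lower bounds set a group without counts at 3 counts over the group, and ratios on few counts have exact 95% intervals, both for counting error only. Rows were named from RefSeq mature miRNAs (GRCm38.p6). Named rows were the 12 with the largest called and non-overlapping change each way at 100 CPM or more in the higher group, up to 4 most abundant rows per list, the 10 most abundant per group and a set of single miRNAs. Rows named as strands, hosts, members of a second cluster or exceptions were picked with their values known. The members and lists were chosen with earlier results of these data known. Arms with no RefSeq entry (miR-34c-5p, miR-449b, miR-143-3p and miR-375-3p among them) are counted in no list. Their reads, if any, fall in rows with other names or none.

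Small RNA totals were 820461 and 119746 counts in LZ and 3392587 and 8591736 in D7, and RNA totals over genes 3597360 and 20545793 in LZ and 13247563 and 11813196 in D7. The labels call the replicates biological without saying which animals they came from. Same-numbered LZ and D7 libraries did not deviate together, so numbers were not used as pairs. Same-numbered LZ and pachytene libraries were not checked in this way. For miR-871-3p, miR-10, miR-26, miR-126a-3p and miR-146 replicate 1 was the higher one in CPM in both LZ and pachytene. For miR-25/92 and miR-9-5p replicate 2 was the higher one in both. For miR-34/miR-449, miR-881-3p and miR-182-5p the higher replicate differed between LZ and pachytene. These rows were picked with their values known. Whether same-numbered LZ and pachytene libraries share a source was not tested. The TMM factors of replicates 1 and 2 were 0.874 and 1.67 in LZ, and 1.02 and 1.67 in pachytene. The main fit treats these libraries as independent, and a replicate block was used only as an alternative. The fit was checked on simulated counts. Alternatives were other scalings, no filter, DESeq2 1.42.0, only LZ and D7 libraries, a replicate block, leaving out each library, named rows only, scaling without the 3 most abundant rows and summing rows shifted by 1 base.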

Additional observations from a re-analysis of the deposited data

How the results depend on the processing

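The miR-34/miR-449, X-linked and Dlk1-Dio3 lists kept the sign of their median log2 fold change under every alternative run. Rows called higher and lower numbered 185 and 278, against 207 and 250 with median-ratio factors, 213 and 232 with upper-quartile factors, 187 and 278 with plain library sizes, 186 and 322 with no filter, 154 and 292 with only the LZ and D7 libraries, and 84 and 155 over named rows only, where fewer rows were tested. Leaving out 1 library gave 117 to 173 higher and 116 to 284 lower, with 94 of the 185 and 97 of the 278 called in all 4 such fits. A fit with the replicate block called 168 higher and 266 lower, and crossing the LZ numbers, an alternative chosen after seeing the data, 167 and 262. The correlation of deviations between LZ and D7 replicate 1 was -0.130 in small RNA and -0.026 in RNA. Host transcripts called higher numbered 7, against 2 with plain library sizes and 4 to 7 with 1 library left out, and processing genes called higher numbered 2, against 1 with plain library sizes.

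Some log2 fold changes turned sign, and the cause was not tested. None of these had passed the test except that of Mcm7, host of miR-25, miR-93 and miR-106b, which was 1.10. With median-ratio factors the values were miR-182-5p 0.63, miR-21 0.17, miR-30 0.46, miR-15/16 0.36 and Dleu2 0.0286. With upper-quartile factors the values were miR-17/20/106 0.18, miR-182-5p 0.92, miR-21 0.40, miR-30 0.68, miR-130/301 0.20, miR-15/16 0.60 and Ptk2 -0.24. With plain library sizes the values were miR-182-5p 0.34, miR-30 0.15, miR-15/16 0.0502, Mcm7 -0.32, Ptk2 -1.26 and Xpo5 -0.65. With no filter the values were miR-126a-3p -0.33, miR-183-5p -0.19 and miR-203-3p -0.23. In DESeq2 the values were miR-182-5p 0.63, miR-21 0.17, miR-30 0.46 and miR-15/16 0.36. With only LZ and D7 libraries the value was miR-182-5p 0.10. In the replicate block fit the value was miR-126a-3p -0.19. Over named rows only the values were miR-182-5p 0.39, miR-21 0.0023, miR-30 0.30 and miR-15/16 0.17. Scaled without the 3 most abundant rows the values were miR-182-5p 0.39, miR-21 0.0049, miR-30 0.31 and miR-15/16 0.17. With shifted rows summed the values were miR-291a/302 0.0216, miR-182-5p 0.20, miR-30 0.24 and miR-15/16 0.0683. With 1 library left out they spanned -1.78 to 0.96 for miR-126a-3p, -1.15 to 2.24 for miR-223-3p, -0.84 to 1.06 for miR-182-5p, -0.57 to 1.37 for miR-96, -0.29 to 0.0252 for miR-21, -0.16 to 0.74 for miR-203-3p, 0.12 to 0.27 for miR-30, -0.25 to 0.33 for miR-15/16 and -0.34 to 0.47 for Ptk2. Of these, miR-30 in DESeq2 (adjusted p = 0.013) and Ptk2 with plain library sizes (adjusted p = 0.00075) passed the threshold.

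Depth limits the low rows. A count of 0 allows up to 4.19 and 15 CPM in the LZ libraries, so LZ levels below these were not resolved. In simulated LZ and D7 counts (660 rows tested), 0% of 2-fold, 42.1% of 4-fold and 66.7% of 16-fold changes were called, on 19, 19 and 18 rows. The simulation gave all rows and libraries 1 common dispersion of 0.114. It did not model a larger spread between LZ replicates beyond counting error, while the measured SD between replicates was 1.65 in LZ and 0.38 in D7. Without LZ replicate 1, rows with no count in LZ replicate 2 had log2 fold changes that set no bound, such as -12.02 for miR-540-3p and -12.25 for miR-673-5p.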
